A study of Mus musculus with 8 samples.

Results

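The genes described here are those of the proteasome, taken as every gene on the array whose symbol starts with Psma, Psmb, Psmc, Psmd, Psme, Psmf or Psmg and has a probe set annotated to that symbol alone. There were 46 such genes, measured by 58 probe sets, among 8251 genes with a probe set of their own. Each gene was represented by its probe set with the highest mean log2 signal over the 8 arrays. Cortex was taken from individual adult mice of 4 months on a C57/bl6 background, kept under a light-dark cycle, with 2 mice per group and 1 array per mouse. The groups were SHARP1/2 double null mutants (S1/2-/-, lacking both basic helix-loop-helix repressors SHARP1 and SHARP2, the products of Bhlhe41 and Bhlhe40) at ZT16, wild-type (WT) mice at ZT16, S1/2-/- mice at ZT4 and WT mice at ZT4. Zeitgeber time (ZT) counts hours from lights on, so ZT16 lies in the dark phase and ZT4 in the light phase. The null alleles are carried in all tissues, mutants and WT controls came from breedings of double heterozygotes, and no group received a treatment. The piece of tissue was a coronal slab of cortex that holds neurons, glia and vessels, so fewer cells of a type and less RNA per cell cannot be told apart in any value below.

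The proteasome degrades proteins that carry ubiquitin chains. Its 20S core is a barrel of outer alpha rings, which gate the entrance, and inner beta rings, which hold the caspase-like, trypsin-like and chymotrypsin-like active sites of Psmb6, Psmb7 and Psmb5. The 19S cap sits on the barrel: its base has a ring of ATPases (Psmc genes) that unfold the substrate, and its lid holds Psmd14, the enzyme that cuts the ubiquitin chain off. Other genes of the family encode alternative caps such as PA28 and PA200, beta subunits that interferon induces, and chaperones that help to build the particle and then leave it. In neurons the proteasome is known for turning over synaptic and clock proteins.

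The 46 genes comprised 7 of the alpha ring, 7 of the beta ring, 3 inducible beta subunits, 6 ATPases and 3 other subunits of the 19S base, 8 of the 19S lid, 3 activators, 7 assembly chaperones, and 2 that share only the prefix (Psme3ip1, which binds an activator, and Psmc3ip, a meiotic recombination factor). A filter dropped probe sets with a mean log2 signal under the 40th percentile, a signal of 111, and 41 of the 46 genes passed it. The ATPase Psmc4, the base scaffold Psmd2, the inducible subunits Psmb8 and Psmb9, and Psmc3ip did not. Signals are microarray brightness on a linear scale on which each array's trimmed mean is 500, and they are compared between mice for 1 gene. Levels of different genes were ranked only to choose probe sets and genes to name. Sums and geometric means over gene lists are also compared between mice, and in a sum the brightest probe sets weigh most.

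The promoters of 3 genes are printed because their ZT16 and ZT4 mice did not overlap in either genotype, in opposite directions, as described below. The same 3 genes had the lowest unadjusted p for a difference between genotypes in the change between times. Each runs from 250 bases before to 50 bases after the RefSeq start on build GRCm38.p6, in the direction of transcription, at chr11:70525107-70525406 on the plus strand (Psmb6, the caspase-like core subunit), chr11:107479278-107479577 on the plus strand (Psmd12, a lid subunit) and chr2:34870913-34871212 on the minus strand (Psmd5, a chaperone of the 19S base). Capitals mark TGACNNNGC, the core of the antioxidant response element that the proteasome regulator Nfe2l1 binds, on either strand.
Psmb6: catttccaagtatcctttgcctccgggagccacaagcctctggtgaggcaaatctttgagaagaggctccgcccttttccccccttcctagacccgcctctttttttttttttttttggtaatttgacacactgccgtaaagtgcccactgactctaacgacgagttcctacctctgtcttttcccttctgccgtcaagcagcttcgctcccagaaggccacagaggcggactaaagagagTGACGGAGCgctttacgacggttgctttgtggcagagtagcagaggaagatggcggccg
Psmd12: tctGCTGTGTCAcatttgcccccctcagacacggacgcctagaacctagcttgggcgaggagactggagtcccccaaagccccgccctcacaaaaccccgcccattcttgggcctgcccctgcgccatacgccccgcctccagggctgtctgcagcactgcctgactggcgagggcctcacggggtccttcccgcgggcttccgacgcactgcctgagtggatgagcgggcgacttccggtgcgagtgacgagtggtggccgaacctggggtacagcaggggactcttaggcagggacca
Psmd5: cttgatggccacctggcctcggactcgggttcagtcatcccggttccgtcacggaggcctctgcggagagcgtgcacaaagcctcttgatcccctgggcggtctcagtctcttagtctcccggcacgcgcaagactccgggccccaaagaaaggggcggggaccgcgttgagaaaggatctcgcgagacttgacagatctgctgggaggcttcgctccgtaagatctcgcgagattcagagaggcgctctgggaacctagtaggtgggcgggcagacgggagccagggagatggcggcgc

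The match in Psmb6 began at position -9 from the start, and that in Psmd12 lay at position -247 on the opposite strand. Psmd5 held no match. Of the 46 genes, 39 had a window in the RefSeq table, in 42 windows. TGACNNNGC was found in 6 of these 42 windows (14.3%), those of Psmb5, Psmb6, Psmc6, Psmd9, Psmd12 and Psme4, and in 12.4% of all 32851 windows of the table. The E-box CACGTG, the sequence that SHARP1 and SHARP2 are known to bind, was in 5 of 42 windows (11.9%), those of Psma4, Psmb10, Psmd9, Psme3 and Psme3ip1, and in 7.2% of all windows. CCAAT was in 15 of 42 (35.7%) and in 37.4% of all. All 3 motifs were searched on both strands, and matches to different motifs were counted even where they overlap. None of the 3 printed promoters held CACGTG or CCAAT. A match is a description of these letters, not evidence of binding.

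As to the mice, Bhlhe40, the gene of SHARP2, had signals of 1043 and 889 in S1/2-/- mice at ZT16, against 1188 and 1285 in WT mice, and of 913 and 834 in S1/2-/- mice at ZT4, against 1074 and 983 in WT mice. The genotypes did not overlap at either time. Whether its probes lie inside the deleted part is unknown, so these signals do not test the labels. Bhlhe41 was not analysed here. Array medians lay between 185 and 205, and 7453 probe sets passed the filter. All 12 markers of cortical projection neurons on the array passed it. Signal ratios of the 3' to the 5' probe set of actin, a measure that moves with RNA integrity and with how the RNA was amplified, were 1.76 and 1.90 in S1/2-/- mice at ZT16 and 1.86 and 1.90 at ZT4, against 1.91 and 2.01 in WT mice at ZT16 and 2.30 and 2.09 at ZT4. The genotypes did not overlap in this ratio, though the nearest values were 1.90 and 1.91. The same ratio for Gapdh overlapped at both times. At ZT16 it was 0.952 and 0.957 in S1/2-/- mice, against 0.918 and 0.961 in WT mice. At ZT4 it was 0.886 and 0.887, against 0.884 and 0.887. Of the oligodendrocyte markers, 7 of 9 passed the filter and all 7 were higher in S1/2-/- mice at both times. Their summed signal over all 9 was 26146 to 28409 in S1/2-/- mice at ZT16, against 22532 to 22956 in WT mice, and 28605 to 29732 in S1/2-/- mice at ZT4, against 16905 to 18672 in WT mice, and no marker was at 0 (the lowest signal was 12.1). All 9 astrocyte markers passed the filter, and 8 of 9 lay above 0 at each time. Their geometric mean signal was 994 and 1063 in S1/2-/- mice at ZT16, against 733 and 769 in WT mice, and 1131 and 967 in S1/2-/- mice at ZT4, against 909 and 833 in WT mice, without overlap, while their summed signals overlapped at both times (18925 to 19341 in S1/2-/- mice, against 16661 to 19682 in WT mice, at ZT16, and 18007 to 20009, against 17213 to 18496, at ZT4). The astrocyte filament gene Gfap had an averaged log2 difference of 1.15 (S1/2-/- minus WT, adjusted p = 0.00979 from limma). Summed signals also did not overlap, with S1/2-/- mice higher, for the markers of microglia at both times and for those of striatal neurons at ZT4 (9253 to 13929 in S1/2-/- mice, against 4214 to 4675 in WT mice). For projection neurons the sums were barely apart, at 23570 to 25486 in S1/2-/- mice, against 20412 to 23463 in WT mice, at ZT16. At ZT4 they were 24077 to 25653, against 22371 to 24044. The geometric means of the projection neuron markers overlapped at ZT4 (1008 and 968 in S1/2-/- mice, against 1018 and 870 in WT mice). Choroid plexus markers summed to 2697 to 2891 in S1/2-/- mice at ZT16, against 5458 to 6184 in WT mice, and to 3432 to 5002 in S1/2-/- mice at ZT4, against 2481 to 2718 in WT mice. The part of these differences in the results below was not tested.

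The first question was whether proteasome mRNAs differ between genotypes in the dark phase, at ZT16. Most of the genes had slightly lower signals in S1/2-/- cortex, and the widest gap was that of the caspase-like core subunit Psmb6, at 0.607 of the WT level. The alpha ring, the beta ring, the ATPases and the lid all leaned the same way, while 2 assembly chaperones, Psmd5 and Psmg4, were higher in the mutants. The shift was small: 31 of 41 genes lay below 0 with a median log2 difference of -0.11 (S1/2-/- minus WT), where 49.2% of all 7453 probe sets lay below 0 with a median of 0.01. No member was called, that is, passed a fold of 1.5 with an adjusted p under 0.05, in a comparison where 0.0134% of all probe sets were called higher and 0% lower. The study had singled out the proteasome at ZT16 from these same arrays, so the direction is not independent evidence.

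**Figure D1:**
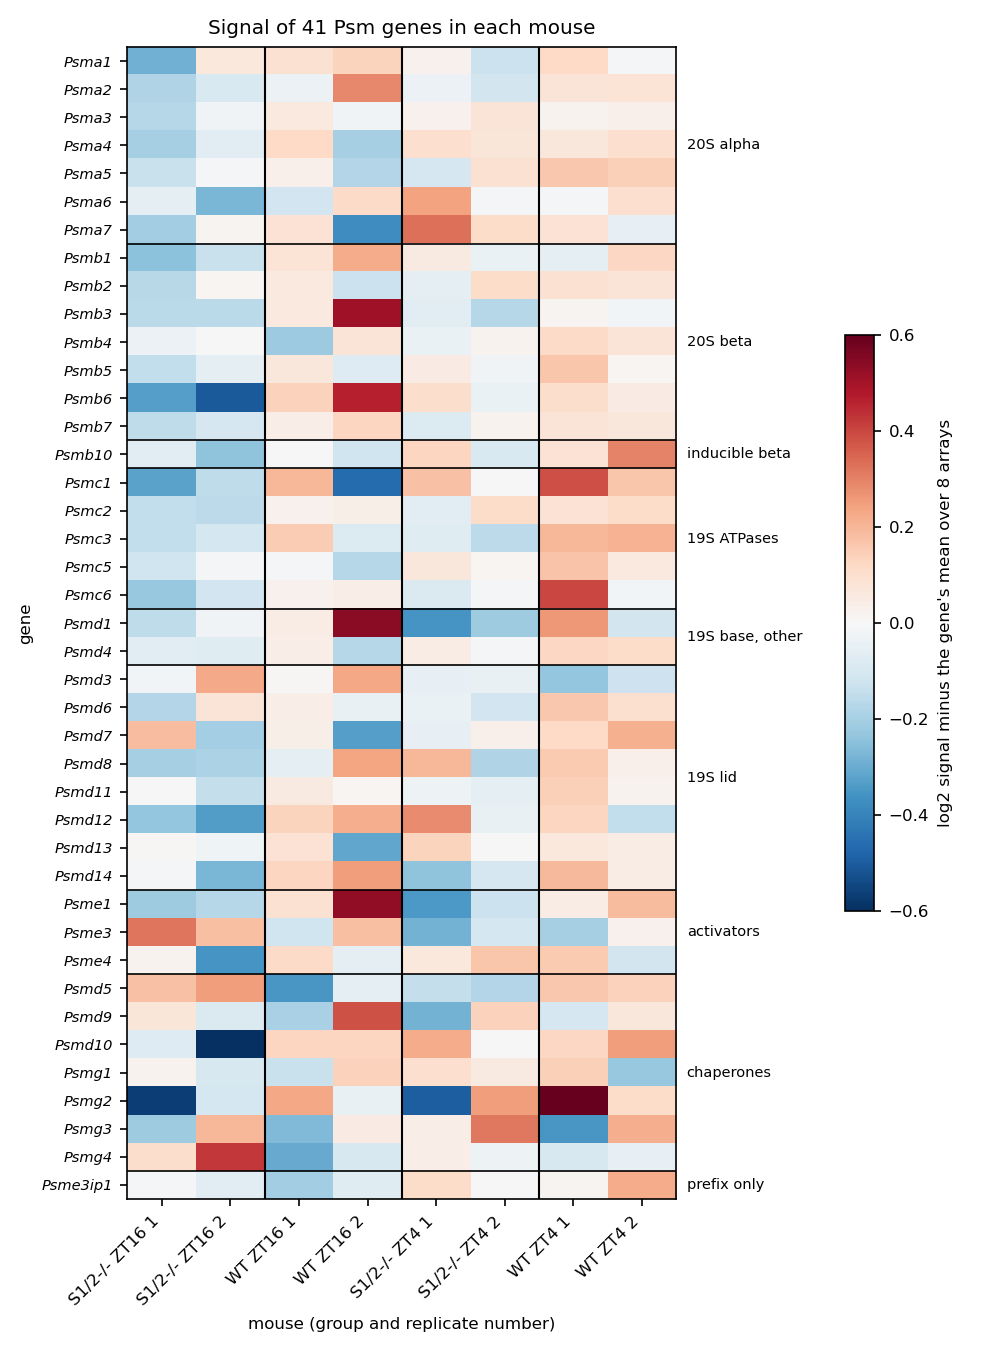
Log2 signal of the 41 Psm genes that passed the filter in each of the 8 mice (columns), as the difference from the gene's own mean over the 8 arrays (colour, cut at 0.6 on either side), with genes grouped by particle (rows). The 2 S1/2-/- mice at ZT16, at the left, are below the gene's mean for 33 and 31 of the 41 genes.

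At an unadjusted p under 0.05 from limma, 6 of the 41 genes were lower in S1/2-/- mice at ZT16 (14.6%, where 5.21% of all probe sets were lower) and 2 were higher (4.88%, against 5.73%). The mice of the 2 genotypes did not overlap, with S1/2-/- lower, for 18 genes (43.9%), and for 21.0% of all probe sets. They did not overlap with S1/2-/- higher for 3 genes (7.32%), and for 21.0% of all. Probe sets this bright leaned the same way to a smaller degree. Among the 2485 above the 80th percentile of mean signal, 56.0% lay below 0, the median was -0.03 and 8.41% had a lower signal with p under 0.05, while 5 of the 33 members in that range did. The count of 6 was 2 without WT ZT16 replicate 2 (3.11% of all probe sets were then lower), 3 without S1/2-/- ZT16 replicate 2 (3.92% of all) and 9 without WT ZT16 replicate 1 (8.09% of all).

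In the catalytic beta ring, Psmb6 had signals of 816 and 724 in S1/2-/- mice at ZT16, against 1130 and 1419 in WT mice. Both mutant mice were below both WT mice, and the log2 difference of -0.72 (SE 0.15) had an unadjusted p of 0.000633 and an adjusted p of 0.212 from limma over all probe sets. The sister active-site subunits had smaller differences. Psmb7, the trypsin-like subunit, had 1484 and 1540 in S1/2-/- mice, against 1700 and 1808 in WT mice, with no overlap and a log2 difference of -0.21 (SE 0.11). Psmb5, the chymotrypsin-like subunit, had 1564 and 1668 in S1/2-/- mice, against 1812 and 1641 in WT mice. The Psmb5 groups overlapped, and the interval of the log2 difference ran from -0.35 to 0.16 (95%, limma).

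Of the beta subunits without an active site, Psmb3 had 1776 and 1781 in S1/2-/- mice at ZT16, against 2073 and 2829 in WT mice. The mutant mice were alike and below both WT mice, which were far apart, and the log2 difference was -0.45 (SE 0.14, adjusted p = 0.355 from limma). Psmb1 had 1684 and 1823 in S1/2-/- mice, against 2119 and 2333 in WT mice, again with no overlap and a log2 difference of -0.34 (SE 0.11, adjusted p = 0.365 from limma). The other Psmb1 probe set that passed the filter had a log2 difference of -0.09 (unadjusted p = 0.404 from limma). Psmb4 had 3060 and 3143 in S1/2-/- mice, against 2702 and 3306 in WT mice, and overlapped. Over the 7 subunits of the beta ring, 6 lay below 0 with a median log2 difference of -0.21. Without WT ZT16 replicate 1, Psmb6 had a log2 difference of -0.88 with an adjusted p of 0.0228 from limma, and Psmb3 one of -0.67 with an adjusted p of 0.0219. In that fit, where 1 WT array was left at ZT16 and was assumed to vary like the other groups, 154 probe sets were called in all. Without WT ZT16 replicate 2, the log2 difference was -0.56 for Psmb6 and -0.22 for Psmb3, with adjusted p of 0.444 and 0.733 from limma, and neither was called.

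The alpha ring, which gates the core, had 6 of 7 subunits below 0 and a median log2 difference of -0.12, and no subunit with an unadjusted p under 0.05. Psma2 had 1858 and 1977 in S1/2-/- mice at ZT16, against 2055 and 2572 in WT mice, with no overlap. Psma3 had 3571 and 3961 in S1/2-/- mice, against 4190 and 3966 in WT mice, and Psma1 had 525 and 668, against 681 and 701. Both sets of mice were just apart for these 2 genes. Psma7 was the alpha subunit above 0, with 1351 and 1576 in S1/2-/- mice, against 1654 and 1205 in WT mice, and its groups overlapped.

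**Figure D2:**
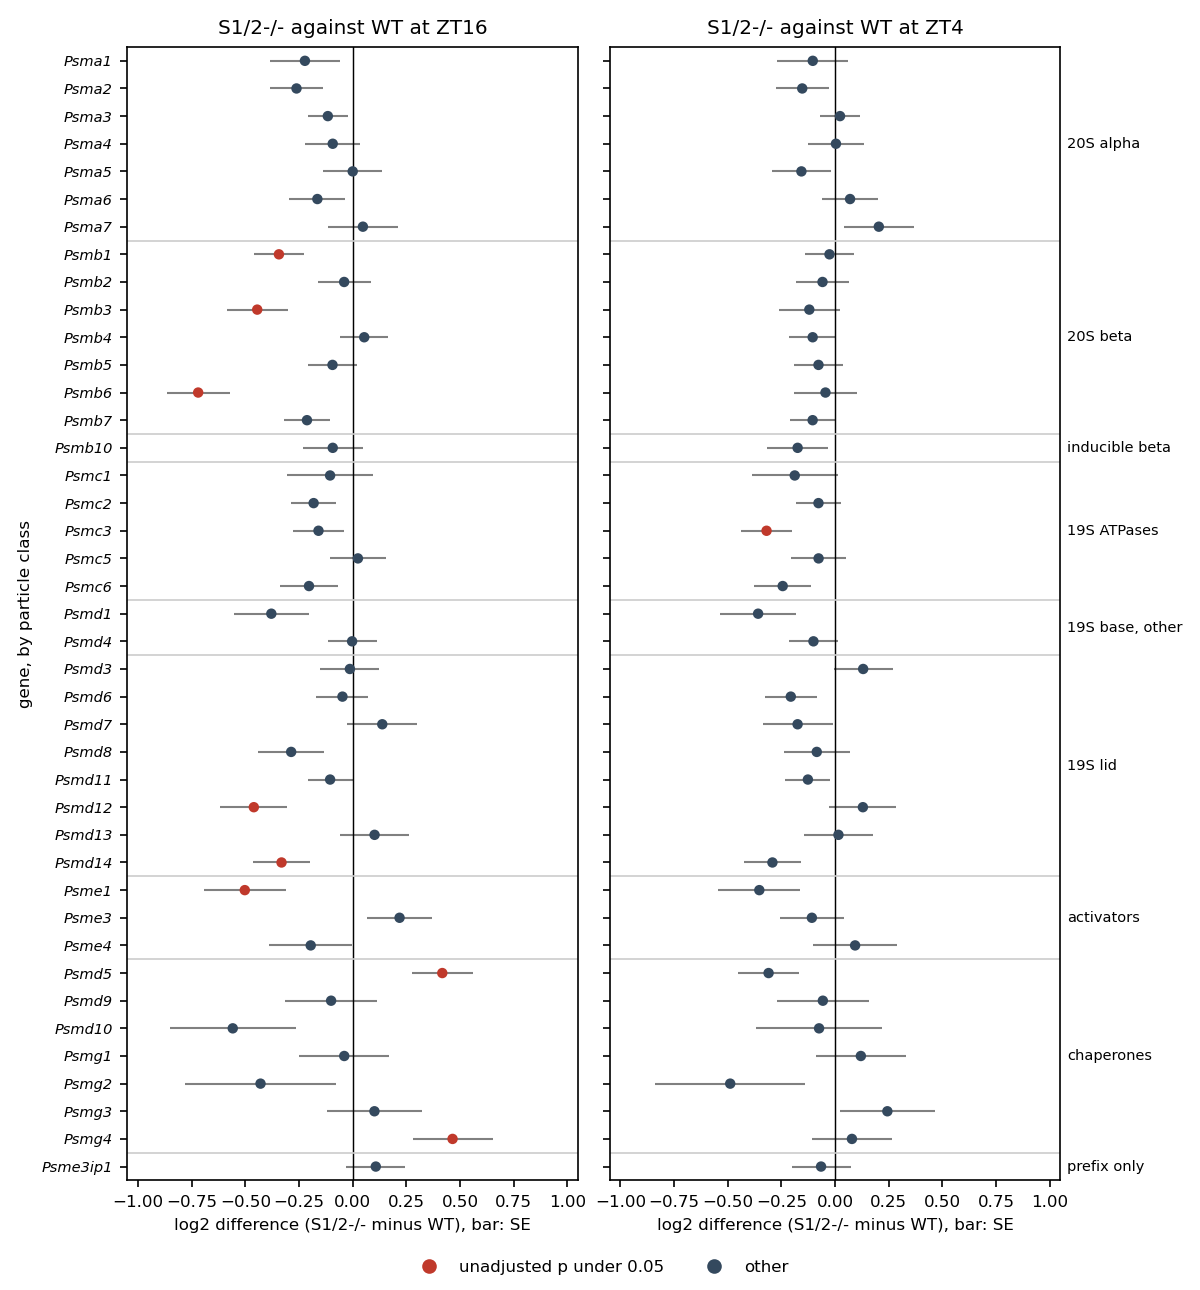
Log2 difference between S1/2-/- and WT cortex (points, with the SE from limma as bars) for each of the 41 genes, grouped by particle, at ZT16 (left) and at ZT4 (right). At ZT16 Psmb6 lies farthest from 0 at -0.72, and the red points are the 8 genes with an unadjusted p under 0.05, while Psmc3 alone is red at ZT4.

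In the 19S cap, 4 of 5 ATPases, both other base subunits and 6 of 8 lid subunits lay below 0 at ZT16, with median log2 differences of -0.16, -0.19 and -0.08. The lid subunit Psmd12 had 794 and 740 in S1/2-/- mice, against 1025 and 1087 in WT mice, with no overlap and a log2 difference of -0.46 (SE 0.16, adjusted p = 0.365 from limma). The lid deubiquitinase Psmd14 had 1442 and 1201 in S1/2-/- mice, against 1586 and 1729 in WT mice. The mutant mice were again the lower ones, with a log2 difference of -0.33 (SE 0.13, adjusted p = 0.398 from limma), which was -0.20 without S1/2-/- ZT16 replicate 2. Psmd1, the large scaffold of the base, had 1584 and 1733 in S1/2-/- mice, against 1816 and 2559 in WT mice, with the WT mice far apart. Psmc6 had 2207 and 2385 in S1/2-/- mice, against 2630 and 2655 in WT mice, without overlap. The lid subunits Psmd11 (2118 and 1919 in S1/2-/- mice, against 2204 and 2135 in WT mice) and Psmd13 (777 and 759, against 822 and 623) differed by less. For Psmd11 the probe sets disagreed: the chosen one had a log2 difference of -0.11, and the other 2 had 0.55 and 0.32.

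Among the activators, Psme1, the alpha subunit of the PA28 cap, had 426 and 438 in S1/2-/- mice at ZT16, against 525 and 713 in WT mice. The mutant mice were lower with no overlap, by a log2 difference of -0.50 (SE 0.19, adjusted p = 0.381 from limma), which was -0.28 without WT ZT16 replicate 2. Psme3, the subunit of the nuclear PA28 gamma cap, had 1442 and 1307 in S1/2-/- mice, against 1064 and 1310 in WT mice, and Psme4, which is PA200, had 453 and 349, against 484 and 429. The groups overlapped for both. Psme2 and Psmf1 had no probe set annotated to them alone and were not analysed here.

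The inducible beta subunits, which replace the standard active sites when interferon acts, had 1 member that passed the filter. Psmb10 had 1084 and 959 in S1/2-/- mice at ZT16, against 1136 and 1042 in WT mice, and overlapped. Psmb8 had 27.2 and 21.9 in S1/2-/- mice at ZT16, against 37.8 and 132 in WT mice, and 174 and 102 in S1/2-/- mice at ZT4, against 95.6 and 149 in WT mice. These values lay on both sides of the filter's signal, the lowest pair being the S1/2-/- mice at ZT16, and no test was read from them. Psmb9 lay between 18.1 and 34.0 in all 8 mice. The other genes under the filter ranged between 13.8 and 88.2 (Psmc4), 32.1 and 149 (Psmd2), and 11.8 and 30.7 (Psmc3ip). Of the 18 interferon-induced and antigen-presentation genes on the array, 7 passed the filter and all 7 had values below 0 at ZT16, where 49.2% of all probe sets did. Some of these values were far smaller than their SE: -0.002 for Irf8 (SE 0.41), -0.05 for Ifit3 (SE 0.56) and -0.06 for Igtp (SE 0.42). At ZT4, Irf9, Ifit3 and Tapbp lay above 0 (0.10, 0.28 and 0.06), so the direction was not shared by both times. At an unadjusted p under 0.05, 1 of the 7 was lower, where 5.21% of all probe sets were (Irf9, a transcription factor of interferon signalling, at a log2 difference of -0.86, adjusted p = 0.400 from limma).

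The assembly chaperones were divided, with 4 of 7 below 0 and a median log2 difference of -0.04. Psmd5 had 970 and 1024 in S1/2-/- mice at ZT16, against 675 and 826 in WT mice. Both mutant mice were higher, by a log2 difference of 0.42 (SE 0.14, adjusted p = 0.365 from limma), or 0.27 without WT ZT16 replicate 1. Psmg4, a chaperone of the 20S core, had 440 and 547 in S1/2-/- mice, against 330 and 382 in WT mice, with a log2 difference of 0.46 (SE 0.19, adjusted p = 0.398 from limma), or 0.31 without S1/2-/- ZT16 replicate 2. Psmg2 had 128 and 176 in S1/2-/- mice, against 223 and 184 in WT mice. It had the widest spread between mice of a group, with an SD of 0.37 on the log2 scale, where the median over the 41 genes was 0.14. Psme3ip1, which shares only the prefix, had 871 and 836 in S1/2-/- mice, against 756 and 830 in WT mice.

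**Figure D3:**
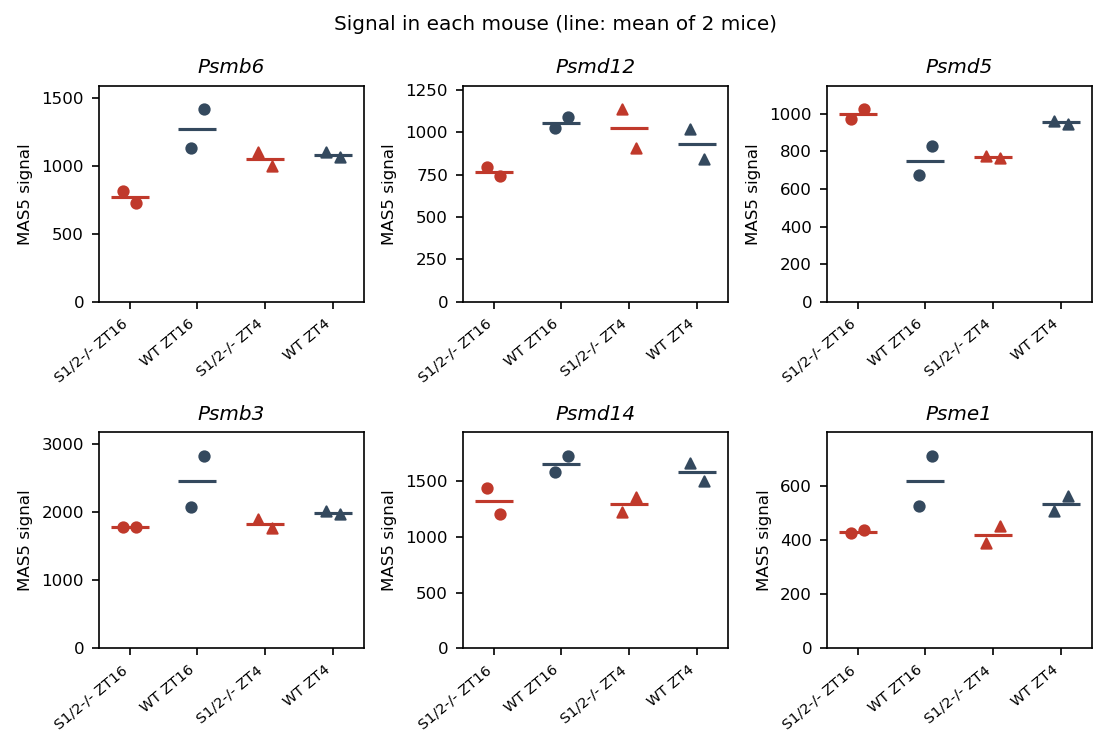
Signal of 6 genes in each mouse (points, with the mean of 2 mice as a line) for S1/2-/- mice (red) and WT mice (dark) at ZT16 (circles) and at ZT4 (triangles). Psmb6 and Psmd12 are lowest in S1/2-/- mice at ZT16, Psmd5 is lowest in WT mice at ZT16 and in S1/2-/- mice at ZT4, and Psmd14 and Psme1 are below WT at both times.

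At ZT4, in the light phase, most of the genes again had values below 0. No member was called, where 0.0805% of all probe sets were called higher and 0.0134% lower. Of the 41 genes, 30 lay below 0 with a median log2 difference of -0.09, where 50.7% of all probe sets lay below 0 with a median of 0.00. At an unadjusted p under 0.05, 1 was lower (3.25% of all probe sets were) and 0 were higher (4.04% of all). The groups did not overlap, with S1/2-/- lower, for 14 genes (34.1%, and 19.9% of all probe sets), and with S1/2-/- higher for 3 (7.32%, and 19.5% of all). The gene with the low p was Psmc3, an ATPase of the base, which had 1387 and 1307 in S1/2-/- mice at ZT4, against 1676 and 1684 in WT mice, with a log2 difference of -0.32 (SE 0.12, adjusted p = 0.595 from limma). Its groups were well apart, but its other 2 probe sets had log2 differences of 0.23 and 0.03. All 7 beta subunits and all 5 ATPases lay below 0, while the alpha ring had 3 of 7 below 0 and a median of 0.00. Psmb6 had 1106 and 999 in S1/2-/- mice at ZT4, against 1105 and 1063 in WT mice, and overlapped. Its log2 difference was -0.04 (95% interval -0.37 to 0.28).

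Averaged over both times, the comparison that uses all 8 mice, no member was called, where 0.215% of all probe sets were called higher and 0.0403% lower. Of the 41 genes, 32 lay below 0 with a median log2 difference of -0.09 (49.6% of all probe sets lay below 0). At an unadjusted p under 0.05, 9 were lower (22.0%, where 5.94% of all probe sets were) and 0 were higher (6.44% of all). These 9 were Psmb6, Psmb3 and Psmb1 of the beta ring, Psma2 of the alpha ring, the ATPases Psmc3 and Psmc6, the scaffold Psmd1, the deubiquitinase Psmd14, and Psme1. Their log2 differences lay between -0.43 and -0.18, and the lowest adjusted p was 0.214 (Psmb6, from limma). Other probe sets that passed the filter had smaller averaged differences, of 0.09 and -0.03 for Psmc3 and -0.07 for Psmb1. Among the 29 subunits of the 20S core, the base and the lid, 26 lay below 0 with a median of -0.13. Probe sets above the 80th percentile had a median of -0.02, with 10.3% lower at an unadjusted p under 0.05. The count of 9 was 5 without S1/2-/- ZT4 replicate 2, and 6 without any of S1/2-/- ZT16 replicate 1, S1/2-/- ZT16 replicate 2 and WT ZT4 replicate 1, while 4.09% to 4.92% of all probe sets were lower in these 4 fits. Without WT ZT16 replicate 2, the averaged log2 difference of Psmb3 was -0.17, that of Psma2 was -0.13 and that of Psmd1 was -0.25, against -0.28, -0.21 and -0.37 with all mice, and without WT ZT4 replicate 1 that of Psmc6 was -0.12, against -0.22.

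The members whose genotypes kept apart at both times were fewer. For 8 of the 41 genes (19.5%, and 6.45% of all probe sets) both S1/2-/- mice were below both WT mice at ZT16 and again at ZT4: Psma2, Psmb3, Psmb7, Psmc3, Psmd1, Psmd11, Psmd14 and Psme1. This describes the chosen probe sets. For Psmd11, another probe set that passed the filter went the other way, with both S1/2-/- mice above both WT mice at each time. Its averaged log2 difference was 0.49 (unadjusted p = 0.0116 from limma), against -0.12 for the chosen one. Psmd14 had 1226 and 1355 in S1/2-/- mice at ZT4, against 1662 and 1498 in WT mice, and its averaged log2 difference was -0.31 (SE 0.09, adjusted p = 0.259 from limma). Psme1 had 388 and 451 in S1/2-/- mice at ZT4, against 508 and 562 in WT mice, with an averaged log2 difference of -0.43 (SE 0.13, adjusted p = 0.268 from limma). Psmd1 had 1378 and 1519 in S1/2-/- mice at ZT4, against 2110 and 1632 in WT mice, with an averaged log2 difference of -0.37 (SE 0.12, adjusted p = 0.297 from limma). For these 3 genes the mutant mice were the lower ones in both phases. Psmg4 alone was higher in S1/2-/- mice at both times without overlap (2.44% of the members, and 5.62% of all probe sets).

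**Figure D4:**
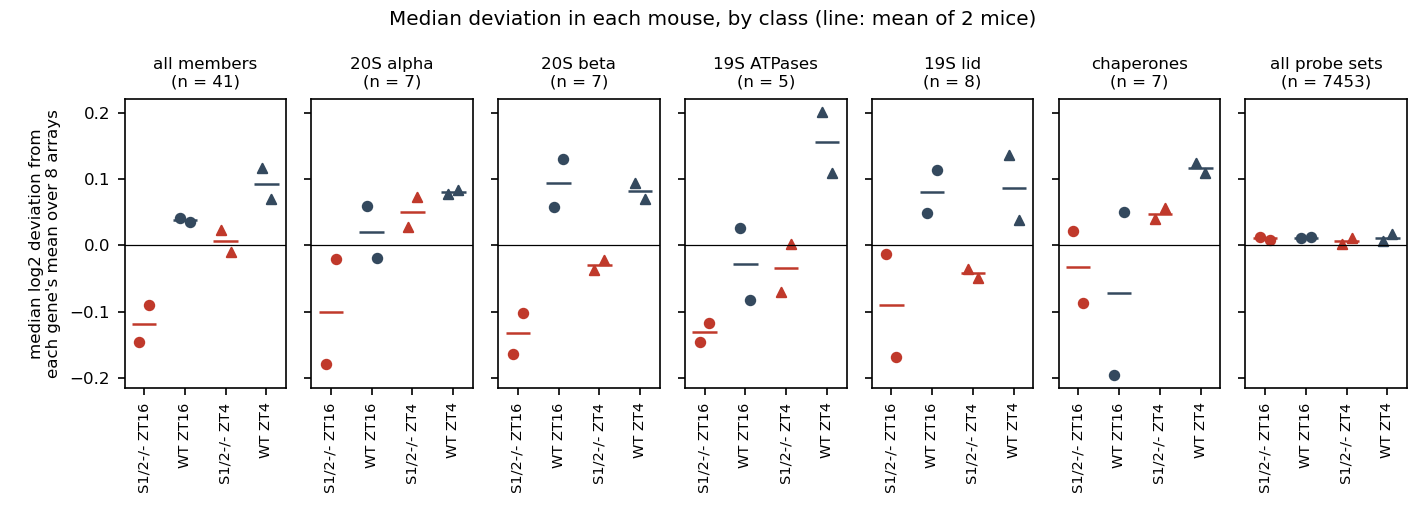
Median over the genes of a class of the log2 difference between a mouse and the gene's mean over 8 arrays (vertical axis), for each mouse (points, with the mean of 2 mice as a line), in S1/2-/- (red) and WT (dark) mice at ZT16 (circles) and ZT4 (triangles). Over all 41 members the S1/2-/- mice at ZT16 are at -0.15 and -0.09, and the median of all probe sets tested stays between 0.00 and 0.02 on each array.

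Taken mouse by mouse, the median deviation of the 41 genes from their own means was -0.15 and -0.09 on the log2 scale in S1/2-/- mice at ZT16, against 0.04 and 0.04 in WT mice, and 0.02 and -0.01 in S1/2-/- mice at ZT4, against 0.12 and 0.07 in WT mice. The ordering at each time was that of the genotypes, and the S1/2-/- mice at ZT16 were the lowest. In the beta ring the medians were -0.16 and -0.10 in S1/2-/- mice at ZT16, against 0.06 and 0.13 in WT mice. In the ATPases they were -0.15 and -0.12 in S1/2-/- mice at ZT16, against 0.03 and -0.08 in WT mice. These values stand beside the actin ratios and the oligodendrocyte and microglia sums given above, in which the genotypes also did not overlap at either time. For astrocytes and projection neurons the separation depended on the measure. Astrocyte sums overlapped at both times, and projection neuron geometric means overlapped at ZT4. The Gapdh ratios overlapped at both times.

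The next comparisons asked how the genes differ between the phases. In S1/2-/- mice, ZT16 against ZT4, 32 of 41 genes lay below 0 with a median log2 difference of -0.10 (ZT16 minus ZT4), where 50.5% of all probe sets lay below 0. All 7 alpha subunits, all 7 beta subunits and all 5 ATPases were among them. No member and no probe set was called (0% in either direction). At an unadjusted p under 0.05, 2 were lower (4.88%, and 2.98% of all probe sets) and 2 were higher (4.88%, and 4.33% of all), so the counts lay near the background. The ZT16 and ZT4 mice did not overlap, with ZT16 lower, for 19 genes (46.3%, and 20.4% of all probe sets), and with ZT16 higher for 5 (12.2%, and 21.0% of all). Psmb6 was lower at ZT16 by 0.45 on the log2 scale and Psmd12 by 0.40 (0.24 without S1/2-/- ZT4 replicate 1), and Psme3 and Psmd5 were higher, by 0.44 (SE 0.15, adjusted p = 0.552 from limma) and 0.37. Psme3 had 1442 and 1307 in S1/2-/- mice at ZT16 and 948 and 1075 at ZT4. Those ZT16 mice were above both ZT4 mice, while the WT mice overlapped in Psme3, with 1064 and 1310 at ZT16 and 1006 and 1176 at ZT4.

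In WT mice, ZT16 against ZT4, 26 of 41 genes lay below 0 with a median log2 difference of -0.06 (50.6% of all probe sets lay below 0). No member was called, where 0.0134% of all probe sets were called higher and 0% lower. With an unadjusted p under 0.05, 1 member was lower (Psmd5, and 3.68% of all probe sets) and 0 were higher (3.93% of all). The groups did not overlap for 12 genes with ZT16 lower (29.3%, and 18.0% of all) and for 4 with ZT16 higher (9.76%, and 17.9% of all). The count lower at that p was 7 without WT ZT16 replicate 1, where the share of all probe sets was 9.08%, and 0 without WT ZT4 replicate 1, where it was 1.84%. All 5 ATPases lay below 0, while the beta ring had 3 of 7 below 0. Psmb3 had 2073 and 2829 in WT mice at ZT16 and 2011 and 1968 at ZT4, which puts both ZT16 mice above the ZT4 mice. Both time comparisons share mice with the genotype comparisons, so their values are not further evidence for them.

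The difference between the genotypes' time changes was tested as an interaction. It had no member called (0% of all probe sets in either direction), 23 of 41 genes below 0 (48.7% of all probe sets were) and a median log2 value of -0.04. At an unadjusted p under 0.05, 2 members were lower (4.88%, and 2.95% of all probe sets) and 1 was higher (2.44%, and 2.74% of all), which is near the background. They were the 3 genes whose promoters are printed above. Psmd5 had 970 and 1024 in S1/2-/- mice at ZT16 and 778 and 762 at ZT4, against 675 and 826 in WT mice at ZT16 and 962 and 946 at ZT4. It was thus higher at ZT16 in mutants and lower at ZT16 in WT mice, with an interaction of 0.73 (SE 0.20, adjusted p = 0.634 from limma). Psmb6 was lower at ZT16 in S1/2-/- mice (816 and 724, against 1106 and 999 at ZT4) and slightly higher at ZT16 in WT mice (1130 and 1419, against 1105 and 1063 at ZT4), with an interaction of -0.68 (SE 0.21, adjusted p = 0.738 from limma). Psmd12 had 1136 and 907 in S1/2-/- mice at ZT4, against 1020 and 844 in WT mice, and overlapped there. Its interaction was -0.59 (SE 0.22, adjusted p = 0.827 from limma). Over the alternative settings, which include leaving out each array, the interaction ranged from 0.58 to 0.87 for Psmd5. It ranged from -0.84 to -0.51 for Psmb6 and from -0.75 to -0.43 for Psmd12.

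Other genes around the proteasome, in lists drawn up from general knowledge, were read at ZT16, where 49.2% of all probe sets lay below 0 and, with an unadjusted p under 0.05, 5.73% were higher and 5.21% lower. Of 10 proteasome-bound factors tested, 5 lay below 0 and 5 above, and 0 had an unadjusted p under 0.05. Of 9 shuttles that carry ubiquitinated proteins to the proteasome and segregases, 6 lay above 0 and 3 were higher at an unadjusted p under 0.05. Bag6, a chaperone of mislocalised proteins, had 1365 and 1150 in S1/2-/- mice, against 1096 and 767 in WT mice, with a log2 difference of 0.45 (adjusted p = 0.428 from limma). The mutant mice were higher without overlap. Of 5 genes listed for the Nfe2l1 pathway, 4 lay above 0 and 2 were higher at an unadjusted p under 0.05. That pathway raises proteasome genes when the particle is inhibited. The listed genes need not all act in that direction, so the count does not measure its activity. Mafk, a small Maf partner of Nfe2l1, had 278 and 270 in S1/2-/- mice, against 190 and 117 in WT mice, with a log2 difference of 0.88 (adjusted p = 0.365 from limma). Sel1l, the other gene with that p, had 973 and 696 in S1/2-/- mice, against 710 and 435 in WT mice, and overlapped. Nfe2l1 itself had 1971 and 2240 in S1/2-/- mice, against 1731 and 1807 in WT mice. Over the 5 genes the geometric mean signal was 576 and 569 in S1/2-/- mice, against 520 and 350 in WT mice. For Bag6, Mafk, Sel1l and this mean, the lower WT value was that of WT ZT16 replicate 2. Differences without that array are not given here for these genes. Of 3 ubiquitin precursors and related enzymes, 2 lay below 0 and 1 was lower at an unadjusted p under 0.05: Uchl1, a neuronal ubiquitin hydrolase, at a log2 difference of -0.28 (adjusted p = 0.365 from limma).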

How the data were processed

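Total RNA from the cortex of 8 individual mice (4 groups of 2, separate animals) was hybridised to Affymetrix arrays of 12488 probe sets. The authors deposited 1 table of MAS5 signals, an intensity on a linear scale scaled so that the 2% trimmed mean of every array is 500 (MAS5 version not given in the sources used here). Trizol extraction is named in the labels, whereas the study's methods name RNeasy columns and a round of RNA amplification before hybridisation, and which of these applies to the 8 arrays was not settled. Probe sets were named from GEO's platform annotation, in which 10833 have 1 symbol, 396 several and 1193 none. Control probe sets (66) were left out, signals were floored at 1 and log2 transformed, probe sets below the 40th percentile of the mean were dropped, and the other 7453 were fitted with limma 3.58.1 (R 4.3.3) as 4 group means with an intensity trend (4 residual and 6.02 prior degrees of freedom). P-values were two-sided, Benjamini-Hochberg adjusted over all 7453, and called at a fold over 1.5 with an adjusted p under 0.05. The pipeline was tested on simulated data. The number of arrays limits the precision.

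Several chosen probe sets carry a suffix of the array's design that marks possible matches to related transcripts (Psma3, Psmb4, Psmb5, Psmb7, Psmc3, Psmd9, Psmd12, Psmg3). Genes were named if they had an unadjusted p under 0.05 (at most 10 each for ZT16 and the averaged comparison and 4 for each of the others), together with the active-site and inducible beta subunits, the activators, and the genes of highest and lowest signal in each class. Others given were chosen after their values were seen. Members and gene lists were chosen with earlier results of these data known. Alternatives covered the filter, the scaling, the pseudocount, the trend, the arrays fitted, the replicate block, each array left out and the methods' ANOVA. A stricter filter, at the 80th percentile, was added after seeing the data.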

Additional observations from a re-analysis of the deposited data

Results flagged for a closer look

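In 3 genes the ZT16 and ZT4 mice did not overlap in either genotype and the difference ran in opposite directions. This pattern was shown by 3 of the 41 proteasome genes and by 5.58% of all probe sets (416 of 7453), so the count lay near the background. In WT mice 2 of the 3 genes were close to a tie. The nearest WT values were 1025 at ZT16 and 1020 at ZT4 for Psmd12, and 1130 at ZT16 and 1105 at ZT4 for Psmb6. The interaction (S1/2-/- minus WT, limma) was -0.68 for Psmb6 (unadjusted p = 0.00884), -0.59 for Psmd12 (unadjusted p = 0.0232) and 0.73 for Psmd5 (unadjusted p = 0.00447), and none passed the adjustment over all probe sets. In Psmd5 the genotypes were also apart in opposite directions at ZT16 and at ZT4, as in 373 of 7453 probe sets.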

How the results depend on the processing

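No member was called under any alternative run, with 1 exception: without WT ZT16 replicate 1, 2 members (Psmb6 and Psmb3) were called at ZT16, and over the arrays left out in turn that count ranged between 0 and 2. The median log2 difference of the members stayed below 0 in 19 of 19 settings for the 2 genotype comparisons by time, the averaged one and the 2 time comparisons, and in 17 of 19 for the interaction. Centring each array on its median moved it to -0.21 at ZT16 (all probe sets then had a median of -0.10), -0.12 at ZT4, -0.14 for time in S1/2-/- mice, -0.11 for the interaction and -0.15 for the average. The average was also -0.12 with no intensity filter and -0.13 over the 20S core, base and lid alone. For time in WT mice it was -0.0949 with the filter at the 80th percentile. With arrays left out in turn, the median ranged from -0.142 to -0.0922 at ZT16, from -0.107 to -0.0178 for time in WT mice, from -0.124 to -0.0854 for the average, and from -0.0897 to 0.0239 for the interaction, where it turned positive without WT ZT16 replicate 1 (0.0120) and without WT ZT4 replicate 2 (0.0239). At ZT4, log2 differences near 0 changed sign for Psmb6 (-0.118 to 0.0286), Psme3 (-0.220 to 0.00414) and Psme4 (-0.0389 to 0.226) over the arrays left out. At ZT16, the count of members lower at an unadjusted p under 0.05 was 12 with median centring against 6 (the share of all probe sets was then 10.1% against 5.21%), and that of higher members was 0 without S1/2-/- ZT16 replicate 2 or WT ZT16 replicate 1. The count of lower members at ZT4 was 0 without S1/2-/- ZT4 replicate 2 or WT ZT4 replicate 1 and 4 without either WT ZT16 array (4.19% and 4.25% of all probe sets). For time in S1/2-/- mice it was 0 without S1/2-/- ZT16 replicate 2 or S1/2-/- ZT4 replicate 1 and 5 without either WT ZT16 array (4.11% and 4.16% of all), and for the interaction it was 4 without WT ZT16 replicate 1 (4.91% of all) and otherwise 1 or 2.

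By the labels, mice share only a replicate number between groups, and their deviations correlated between -0.00135 and 0.0982. Such values gave no sign that the numbers pair the mice, but they cannot exclude a pairing that affects some genes. With the replicate block, the ZT16 median was -0.11 and no member was called in any comparison, and no count of members at an unadjusted p under 0.05 moved by more than 1. With 2 mice per group, a member needed a large difference to pass the adjustment over 7453 probe sets, so a difference that did not pass is not shown to be absent.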
